A study of Mus musculus with 15 samples.

Results

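Messenger RNAs of the common gamma chain cytokine family were followed in mouse spleen after whole-body ionising radiation. The 7 genes were chosen by name: the shared chain *Il2rg*, the receptor chains *Il7r*, *Il2rb*, *Il4ra* and *Il21r*, and the ligands *Il7* and *Il15*, out of 561 genes on an nCounter immunology panel for mouse, which hybridises each mRNA to a probe pair and counts the colour-coded barcodes without amplification. The 15 samples formed 5 groups of 3, and all mice were female C57BL/6J mice, 6 to 8 weeks old. Sham mice received neither injury, and the methods, under the burn model, state that sham groups otherwise had the same procedure. WBIR mice received 9 Gy from a caesium source, and RCI mice received a full-thickness contact burn over 20% of the body surface followed by 9 Gy. WBIR+MSC-EVs and RCI+MSC-EVs mice had the same injuries and an intravenous dose of extracellular vesicles from bone marrow mesenchymal stem cells of C57BL/6J mice, given 72 hours after injury. Spleens were taken 48 hours later, and RNA came from cell suspensions after lysis of red blood cells. The labels name phosphate-buffered saline for the untreated RCI group alone, and the study's text gives saline for untreated mice of both injuries and Sham. The methods describe anaesthesia, morphine and fluid for the burn procedure and not for WBIR alone, so their effects and that of the burn cannot be told apart. If Sham followed the burn procedure, WBIR also differed from Sham in them, and their effects and that of radiation cannot be told apart there. Whether the 3 samples of a group were 3 mice is not settled by the labels, and p-values therefore measure the spread between these samples, which may be technical.

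Receptors of this family are built on the chain encoded by *Il2rg*, which pairs with a chain that gives each receptor its ligand: *Il7r* for interleukin-7, *Il2rb* for interleukin-2 and interleukin-15, *Il4ra* for interleukin-4, and *Il21r* for interleukin-21. Ligand binding brings together the kinases Jak1 and Jak3, which activate STAT factors, STAT5 above all for interleukin-2, interleukin-7 and interleukin-15. Interleukin-7, made mostly by stromal cells, keeps naive T cells alive, and interleukin-15, made by myeloid and stromal cells, does so for NK cells and memory CD8 T cells. In the spleen the receptor chains are carried by lymphocytes but not by them alone, and *Il4ra*, for example, is also found on myeloid cells.

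RefSeq gave the region around the start of 4 of the 7 genes, *Il7r*, *Il2rg*, *Il4ra* and *Il21r*, in the mouse build GRCm38.p6. Each region of 300 bases, 250 before and 50 after the start, was searched on both strands for TTCNNNGAA, the spaced palindrome that STAT dimers bind and the same on either strand, and for the core of the interferon-stimulated response element, the repeat bound by interferon regulatory factors. *Il7r* held 1 match to TTCNNNGAA and none to the other motif, and the other 3 genes held 0 matches to either. Of 32851 promoters of that length, 8.30% held TTCNNNGAA and 3.44% held the interferon-stimulated core. The 250 bases before the start are printed for *Il7r*, the gene with the largest fall of the family, at chr15:9529877-9530126 on the minus strand, and for *Il2rg*, the chain that all these receptors share, at chrX:101268256-101268505 on the minus strand, both written 5′ to 3′ with the match in capitals.
Il7r: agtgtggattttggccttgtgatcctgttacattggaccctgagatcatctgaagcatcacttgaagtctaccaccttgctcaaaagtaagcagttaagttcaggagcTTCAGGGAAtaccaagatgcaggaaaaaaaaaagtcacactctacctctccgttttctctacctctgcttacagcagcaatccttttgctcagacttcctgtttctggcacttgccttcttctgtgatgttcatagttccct
Il2rg: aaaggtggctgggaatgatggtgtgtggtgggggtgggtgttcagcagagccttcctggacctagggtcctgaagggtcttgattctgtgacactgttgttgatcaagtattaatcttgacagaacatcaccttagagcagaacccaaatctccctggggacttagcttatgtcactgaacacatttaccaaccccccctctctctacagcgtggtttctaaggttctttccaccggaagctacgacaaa
The match in *Il7r* lies 142 to 134 bases before the annotated start. It is a match of letters, and binding was not measured. *Il4ra* and *Il21r* are neighbours on chromosome 7, with 0 annotated protein-coding genes between them.

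The samples held between 90127 and 598872 counts in total (median 360995), the fewest in WBIR+MSC-EVs replicate 1 and then in Sham replicate 2 (179472). Levels below are scaled counts, which are raw counts divided by a factor from the sample's 14 reference genes, and since each probe has its own efficiency, levels of different genes were not compared. The scaling moved all genes: with the reference genes the median log2 fold change (log2FC) of all 426 tested genes was -0.74, -0.61, -0.53 and -0.45 against Sham, and with TMM scaling, which centres the typical gene, it was -0.03, -0.05, 0.01 and -0.08. Where 4 values follow each other, they stand for WBIR without and with MSC-EVs and then RCI without and with MSC-EVs. Where the call against Sham of one of the 7 genes, or of a pathway gene, differs between these scalings, both values are given. Summed T cell markers (10 genes) were at 8881 to 20580 scaled counts in Sham and 2157 to 4619 in the 12 irradiated samples, summed B cell markers (8 genes) at 27710 to 66580 and 2528 to 7600, and summed macrophage and monocyte markers (6 genes) at 1644 to 2685 and 9638 to 35550. No marker of these 3 lists was at the table's lowest value, 1, in any sample. The NK and cytotoxic sum (8 genes), at 1790 to 5924 in Sham and 830 to 3738 after irradiation, overlapped, as did the neutrophil and the stromal sums. In cells pooled from a whole spleen, fewer cells of a type and less RNA per cell cannot be told apart.

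To determine how irradiation altered the family, each injured group was compared with Sham. *Il7r* was lower in all 4 injured groups by 11.7-fold to 22.8-fold, the estimates of the other receptor chains were negative and smaller, and *Il15* was higher, with log2FC of 1.72 to 2.51. Of the 7 genes, edgeR called 5, 4, 4 and 3 lower, and 1, *Il15*, higher in each comparison. Over all 426 genes the same test called 46.9%, 45.1%, 43.0% and 41.3% lower and 21.6%, 22.8%, 26.5% and 23.9% higher. The median log2FC of the 7 genes was -1.12, -0.81, -0.90 and -0.65. Of the 10 T cell markers 10, 10, 10 and 9 were called lower and of the 8 B cell markers 8 in each comparison, and their part in the falls of the receptor chains was not tested. With TMM scaling the number called was 3, 3, 2 and 2: *Il7r* and *Il15* in each comparison, and *Il2rg* in both WBIR groups. The share of all tested genes called with TMM scaling is not given, so these counts do not set the family apart from the panel. The 4 comparisons share the Sham samples and are not independent of each other. All 7 genes passed the filter of a mean of 20 counts, *Il7* narrowly, at 21.2 counts, and at 17.8 without its highest sample, RCI replicate 3. *Il15*, at a mean of 70.5, had 10 to 19 raw counts in Sham and passed through the irradiated samples.

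**Figure D1:**
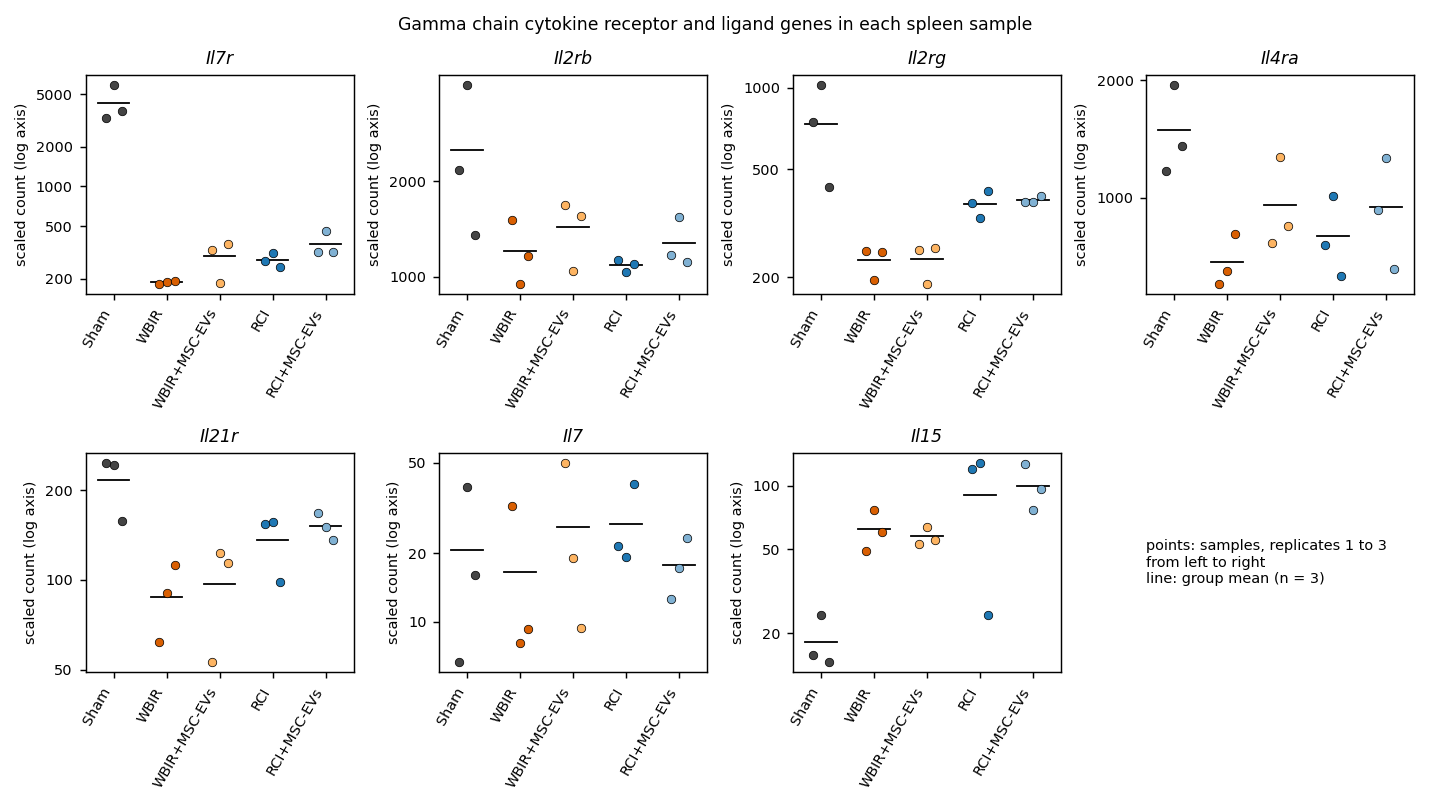
Scaled counts on log axes (vertical) of the 7 genes in each of the 15 samples, by group (horizontal); points are replicates 1 to 3 and lines are group means (n = 3). *Il7r* lies at 3304 to 5900 in Sham and at 182.7 to 460.9 in the irradiated samples, while *Il7* overlaps in all groups and *Il15* is at 14.59 to 24.5 in Sham.

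The shared chain *Il2rg* had 750.5, 1029 and 430.0 scaled counts in Sham replicates 1 to 3. It had 249.6, 195.4 and 246.8 in WBIR and 253.1, 188.7 and 256.2 in WBIR+MSC-EVs. It had 375.8, 329.6 and 415.9 in RCI and 378.0, 378.2 and 399.1 in RCI+MSC-EVs. All Sham samples lay above all irradiated samples, although Sham replicate 3 exceeded RCI replicate 3 by little, and both RCI groups lay above both WBIR groups without overlap. In order, the group means (± SD, n = 3) were 231 ± 30.5 without and 233 ± 38.1 with MSC-EVs in WBIR, 374 ± 43.2 without and 385 ± 12.1 with MSC-EVs in RCI, and 737 ± 299.7 in Sham, and the neighbours of the same injury differed by less than their spread. Against Sham the log2FC was -1.67 ± 0.27 (SE) in WBIR and -1.66 ± 0.27 in WBIR+MSC-EVs (edgeR adjusted p 9.85e-05 and 0.00011). It was -0.97 ± 0.27 in RCI and -0.93 ± 0.27 in RCI+MSC-EVs (edgeR adjusted p 0.00465 and 0.00676). With TMM scaling *Il2rg* remained called in WBIR (-0.99, adjusted p 0.00325) and WBIR+MSC-EVs (-1.08, adjusted p 0.00189), and was not called in RCI (-0.42, adjusted p 0.143) or RCI+MSC-EVs (-0.55, adjusted p 0.0653).

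*Il7r* encodes the alpha chain of the interleukin-7 receptor, the survival receptor of naive T cells and of early lymphocyte precursors. Its levels were 3304, 5900 and 3688 scaled counts in Sham. They were 182.7, 189.3 and 192.9 in WBIR and 332.6, 187.5 and 366.8 in WBIR+MSC-EVs. In RCI they were 273.5, 312.8 and 245.2, and in RCI+MSC-EVs 321.8, 460.9 and 318.2. The lowest Sham sample was several times the highest irradiated sample, and among irradiated groups WBIR was both lowest and most uniform. The means were 188 ± 5.17 in WBIR, 277 ± 34.0 in RCI, 296 ± 95.2 in WBIR+MSC-EVs, 367 ± 81.4 in RCI+MSC-EVs and 4297 ± 1401 in Sham, and the ranges of RCI and WBIR+MSC-EVs, neighbours in this order, overlapped. *Il7r* fell by 4.51 on the log2 scale in WBIR (SE 0.32, edgeR adjusted p 7.56e-08) and by 3.87 in WBIR+MSC-EVs (SE 0.31, edgeR adjusted p 4.14e-07). It fell by 3.95 in RCI (SE 0.31, edgeR adjusted p 3.29e-07) and by 3.55 in RCI+MSC-EVs (SE 0.31, edgeR adjusted p 5.88e-07). With TMM scaling the log2FC were -3.82, -3.28, -3.43 and -3.18, and the call held in each of 23 alternative settings in each comparison.

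*Il2rb*, the beta chain that binds interleukin-2 and interleukin-15 on NK and T cells, had 2163, 4035 and 1354 scaled counts in Sham. It had 1515, 948.7 and 1167 in WBIR, and 1689, 1044 and 1558 in WBIR+MSC-EVs. It had 1126, 1037 and 1101 in RCI, and 1172, 1546 and 1114 in RCI+MSC-EVs. The Sham samples spread widely, and the lowest of them lay within the range of every injured group but RCI. Sham replicate 2 was the highest after division by its factor of 0.408, although its 1647 raw counts were the fewest of the 3 Sham samples. The means were 1088 ± 46.2 in RCI, 1210 ± 285 in WBIR, 1277 ± 234 in RCI+MSC-EVs, 1430 ± 341 in WBIR+MSC-EVs and 2517 ± 1375 in Sham, and each pair of injured neighbours overlapped. The log2FC were -1.06, -0.81, -1.21 and -0.98, each with an SE of 0.34 (edgeR adjusted p 0.0132, 0.0470, 0.00592 and 0.0210). Without Sham replicate 2 the call was lost in WBIR (-0.54, adjusted p 0.110), WBIR+MSC-EVs (-0.30, adjusted p 0.371) and RCI+MSC-EVs (-0.46, adjusted p 0.174). It was also lost in WBIR without WBIR replicate 2 (adjusted p 0.0593) and in RCI+MSC-EVs without that group's replicate 1 or 3 (adjusted p 0.0669 and 0.0706), and in WBIR+MSC-EVs it was called in 7 of 23 alternative settings. With TMM scaling *Il2rb* was called in 0 of the 4 comparisons, with log2FC of -0.32, -0.18, -0.62 and -0.56.

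*Il4ra*, the chain that interleukin-4 and interleukin-13 receptors have in common, had 1167, 1950 and 1354 scaled counts in Sham. It had 599.7, 648.0 and 807.1 in WBIR, and 762.2, 1269 and 846.8 in WBIR+MSC-EVs. It had 754.2, 1012 and 628.5 in RCI, and 926.6, 1260 and 655.6 in RCI+MSC-EVs. Both untreated injured groups lay below Sham, and in order the means were 685 ± 109 in WBIR, 798 ± 195 in RCI, 947 ± 303 in RCI+MSC-EVs, 959 ± 271 in WBIR+MSC-EVs and 1490 ± 409 in Sham, injured neighbours overlapping. In each treated group the second replicate reached into the Sham range. The log2FC was -1.12 ± 0.30 in WBIR (edgeR adjusted p 0.00429) and -0.90 ± 0.30 in RCI (edgeR adjusted p 0.0154). In WBIR+MSC-EVs it was -0.63 ± 0.30 and in RCI+MSC-EVs -0.65 ± 0.30, which did not pass (edgeR adjusted p 0.0760 and 0.0671). With TMM scaling it was not called in WBIR (-0.45, adjusted p 0.0933) or RCI (-0.41, adjusted p 0.118), and without Sham replicate 2 or RCI replicate 3 not in RCI (adjusted p 0.0713 and 0.0518). With the replicate number as a block it was called in both treated groups too (adjusted p 0.0325 and 0.0293). The same held without Sham replicate 1 (adjusted p 0.0473 and 0.0433) or without the treated group's own replicate 2 (adjusted p 0.0312 and 0.0276). Scaled to the least variable reference genes it was called in RCI+MSC-EVs (adjusted p 0.0322) and not in WBIR+MSC-EVs (adjusted p 0.0977).

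*Il21r*, the receptor chain for the T helper cytokine interleukin-21, had 246.8, 242.5 and 157.4 scaled counts in Sham. It had 61.77, 90.11 and 112.0 in WBIR, and 52.97, 123.0 and 113.8 in WBIR+MSC-EVs. It had 154.3, 155.8 and 98.43 in RCI, and 168.0, 150.6 and 136.2 in RCI+MSC-EVs. Both WBIR groups lay below Sham, RCI replicates 1 and 2 came close to the lowest Sham sample while RCI replicate 3 lay among the WBIR+MSC-EVs samples, and RCI+MSC-EVs overlapped with Sham. The means were 88.0 ± 25.2 without and 96.6 ± 38.0 with MSC-EVs in WBIR, 136 ± 32.7 without and 152 ± 15.9 with MSC-EVs in RCI, and 216 ± 50.4 in Sham, and injured neighbours in this order overlapped. The log2FC was -1.28 ± 0.33 in WBIR and -1.12 ± 0.33 in WBIR+MSC-EVs (edgeR adjusted p 0.00316 and 0.00791). It was -0.66 ± 0.32 in RCI and -0.50 ± 0.32 in RCI+MSC-EVs, which did not pass (edgeR adjusted p 0.0836 and 0.182). RCI was called in 3 of 23 alternative settings. These were scaling to the least variable reference genes (-0.88, adjusted p 0.030) and leaving out Sham replicate 3 (adjusted p 0.0425) or WBIR+MSC-EVs replicate 1. With TMM scaling it was not called in the WBIR groups either (-0.66 and -0.59, adjusted p 0.0664 and 0.0985). A difference between the injuries is given with the burn comparison.

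The ligand *Il15* had 15.74, 24.5 and 14.59 scaled counts in Sham, from 10 to 19 raw counts. It had 48.9, 76.95 and 60.66 in WBIR, and 52.97, 64.01 and 55.54 in WBIR+MSC-EVs. It had 119.3, 128.2 and 24.46 in RCI, and 126.0, 77.01 and 96.85 in RCI+MSC-EVs. Every irradiated sample but RCI replicate 3 was above all Sham samples, and that sample lay at the level of Sham replicate 2. The means were 18.3 ± 5.42 in Sham, 57.5 ± 5.77 in WBIR+MSC-EVs, 62.2 ± 14.1 in WBIR, 90.7 ± 57.5 in RCI and 99.96 ± 24.7 in RCI+MSC-EVs, and injured neighbours overlapped. *Il15* rose by 1.83 ± 0.51 on the log2 scale in WBIR and 1.72 ± 0.51 in WBIR+MSC-EVs (edgeR adjusted p 0.00527 and 0.00823). It rose by 2.36 ± 0.51 in RCI and 2.51 ± 0.51 in RCI+MSC-EVs (edgeR adjusted p 0.000929 and 0.000646), and by 2.82 in RCI without RCI replicate 3. With TMM scaling the log2FC were 2.44, 2.23, 2.71 and 2.83, and the call held in each of 23 alternative settings in each comparison. Background was not subtracted and the Sham counts were low, which leaves how far *Il15* rose less sure than that it rose. Of the 6 macrophage and monocyte markers, given above, 5, 6, 5 and 5 were called higher in the same comparisons. They did not all follow *Il15* sample by sample. In RCI replicate 3, *Marco* (27540) and *Cd14* (1055) had their highest scaled counts, and *Csf1r* (1605) and *Cd163* (93.19) their lowest among irradiated samples. The part of these markers in the rise of *Il15* was not tested.

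*Il7*, the ligand of *Il7r*, was near the low end of the assay, at 8 to 69 raw counts per sample. Its scaled counts were 6.627, 39.2 and 16.13 in Sham. They were 32.17, 8.1 and 9.267 in WBIR, and 50.03, 19.09 and 9.348 in WBIR+MSC-EVs. They were 21.52, 19.18 and 40.19 in RCI, and 12.6, 17.24 and 23.41 in RCI+MSC-EVs. All groups overlapped, and replicates spread most in Sham and both WBIR groups. The log2FC against Sham were -0.20 ± 0.75, 0.29 ± 0.75, 0.57 ± 0.71 and -0.06 ± 0.74 (lowest edgeR adjusted p 0.473), with wide SEs at these counts.

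**Figure D2:**
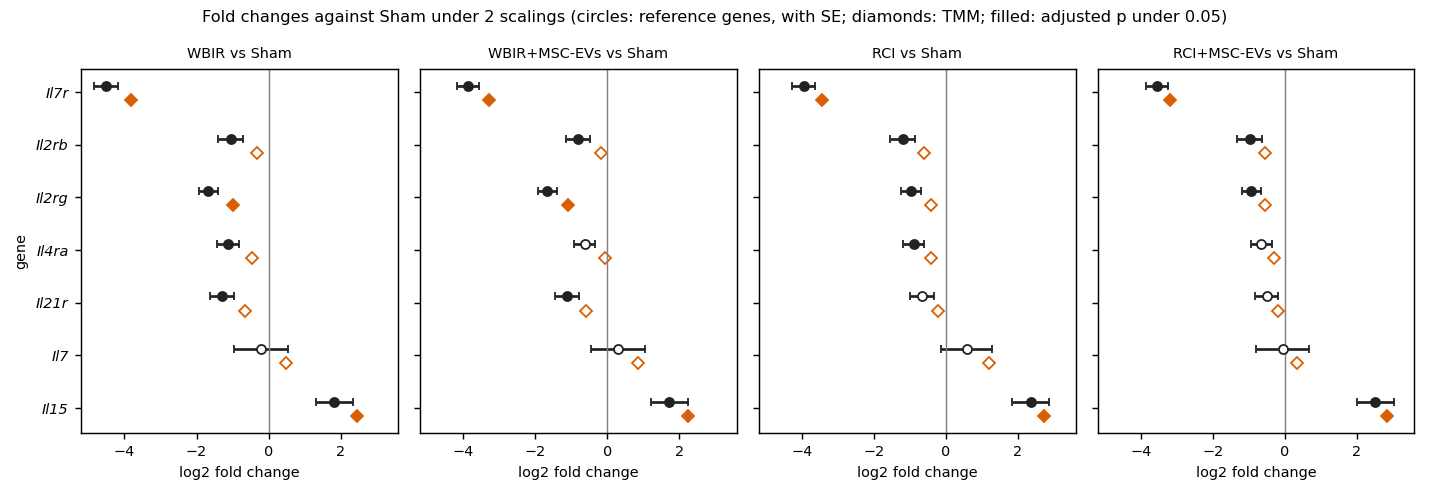
Log2 fold change against Sham (horizontal) of the 7 genes (vertical) in the 4 injured groups; circles are scaled to reference genes with SE bars, diamonds are scaled by TMM, and filled symbols have an adjusted p under 0.05 by edgeR. *Il7r* and *Il15* are filled under both scalings in all 4 panels, *Il2rg* in both WBIR panels.

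The falls were set against genes of cells that carry these receptors by taking ratios of raw counts within each sample, in which any scaling cancels. Each of 14 ratios was compared between the 3 Sham and the 12 irradiated samples with an exact two-sided permutation test (455 assignments, smallest possible p 0.0044) and adjusted over the 14. *Il7r* per *Cd3e*, which encodes a subunit of the T cell receptor complex, was 2.44, 3.40 and 3.34 in Sham and 0.511 to 1.06 in the irradiated samples. The ratio was thus 4.21-fold lower after irradiation (-2.07 on the log2 scale, permutation adjusted p 0.00879), with no overlap. *Cd3e* itself had log2FC of -2.15 to -1.40 against Sham in the 4 injured groups and was among the less reduced of the 10 T cell markers, whose medians were -2.53, -2.39, -2.31 and -2.01. The genes of the CD8 coreceptor came near *Il7r*, with log2FC of -3.86, -3.66, -4.11 and -3.46 for *Cd8a* and of -4.00, -3.92, -3.78 and -3.06 for *Cd8b1*. *Il7r* per *Il2rg* was 4.40, 5.73 and 8.58 in Sham and 6.56-fold lower in the irradiated samples (-2.71 on the log2 scale, permutation adjusted p 0.00879). *Il7r* thus fell further than *Cd3e* and *Il2rg*, and ratios to the other T cell markers were not computed.

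For *Il2rb* and *Il2rg* the ratio to *Cd3e* moved the other way. *Il2rb* per *Cd3e* was 1.97-fold higher after irradiation (0.98 on the log2 scale) and *Il2rg* per *Cd3e* 1.56-fold higher (0.64), both with a permutation adjusted p of 0.0137. Without Sham replicate 1 or 3 both calls were lost, with a permutation adjusted p of up to 0.0684. Fewer assignments exist with 2 Sham samples, and even *Il7r* per *Cd3e*, without overlap, then had an adjusted p of up to 0.0440. The lost calls therefore cannot show whether the differences rest on those samples. With samples left out in turn, the differences lay between 0.76 and 1.22 for *Il2rb* and between 0.45 and 0.76 for *Il2rg*. *Il2rb* per *Klrd1*, the gene of the NK cell receptor chain CD94, was 3.55-fold higher (permutation adjusted p 0.00879), and *Klrd1* had log2FC of -2.53 in WBIR and -3.54 in RCI against Sham. *Klrd1* does not stand for its list: of the 8 NK and cytotoxic markers it was the 1 called lower in either WBIR group, *Gzmb* was called higher in both, and the list's median log2FC was -0.07, -0.18, -1.01 and -0.83. Relative to *Il2rg*, the differences of *Il2rb*, *Il4ra* and *Il21r* were 0.34, 0.41 and 0.31 on the log2 scale and did not pass (permutation adjusted p 0.341, 0.341 and 0.374), nor did *Il2rg* per *Ptprc*, the pan-leukocyte gene for CD45 (-0.18, permutation adjusted p 0.511), or *Il4ra* per *Il21r* (0.09, permutation adjusted p 0.765). The pooled value of *Il2rb* per *Il2rg* joins unlike groups. Its log2 ratio was 1.53 to 1.97 in Sham and higher in all 6 samples of the WBIR groups (2.24 to 2.74), with means of 1.72 in Sham, 2.37 without and 2.60 with MSC-EVs in WBIR, and 1.55 without and 1.72 with MSC-EVs in RCI, and the groups were not tested apart. Of the ligands, *Il15* per *Il2rb* was 7.34-fold higher (permutation adjusted p 0.00879). That ratio joins the rise of *Il15* and the fall of *Il2rb* given above and is not independent of them. It also rests on 10 to 19 raw counts of *Il15* in Sham. The ratio of *Il7* to *Il7r* is not given, since *Il7* lay near the low end of the counts and the ratio would restate the fall of *Il7r*. The irradiated samples come from 4 groups, which the test treats alike.

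**Figure D3:**
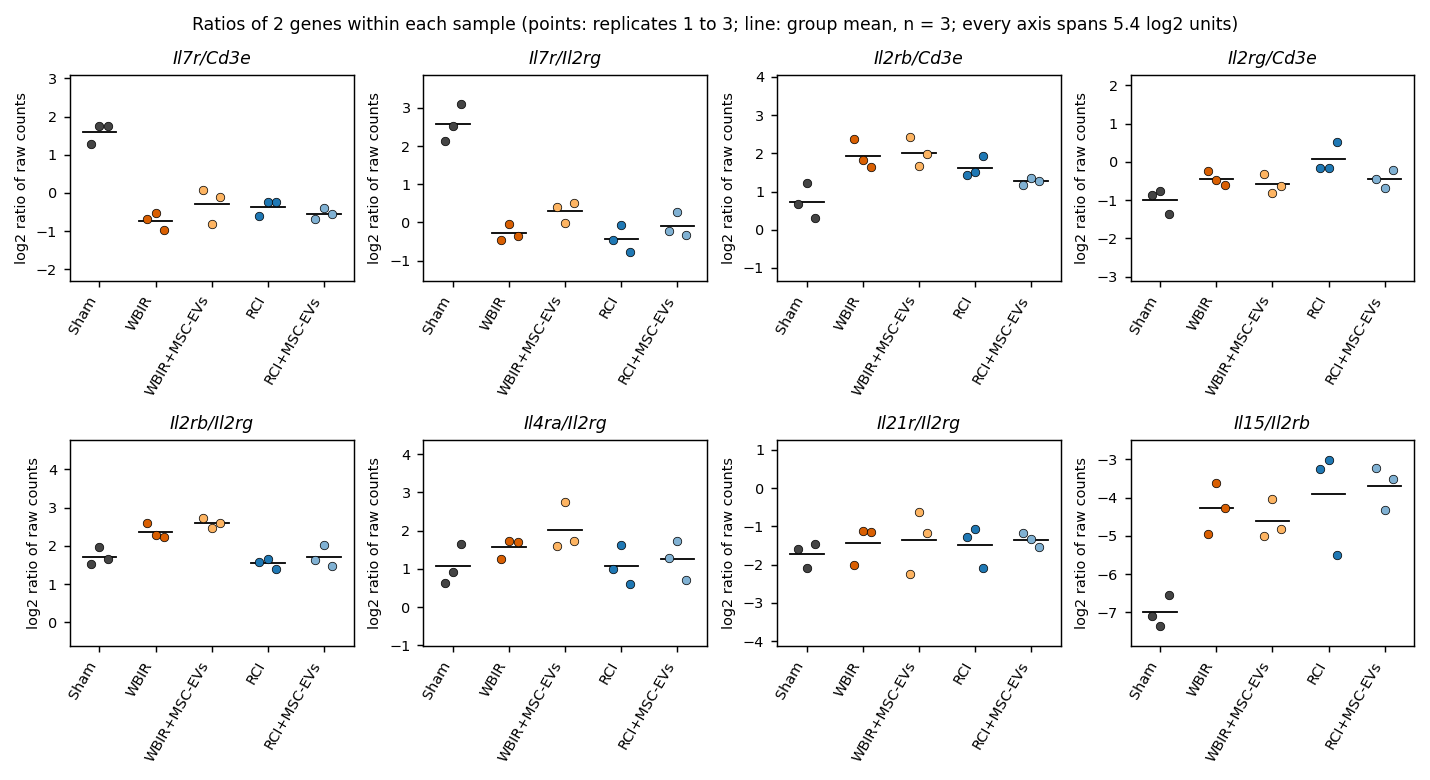
Log2 ratios of raw counts of 2 genes within each sample (vertical) by group (horizontal); points are replicates 1 to 3, lines are group means (n = 3), and all axes span the same range. *Il7r* per *Cd3e* is 1.29 to 1.76 in Sham and -0.97 to 0.08 in irradiated samples, whereas *Il2rb*, *Il4ra* and *Il21r* per *Il2rg* overlap between Sham and irradiated samples, *Il2rb* through the RCI groups.

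To ask whether MSC-EVs altered these genes, treated and untreated mice of the same injury were compared. edgeR called 0 of the 7 genes and 0.0% of all 426 in WBIR+MSC-EVs against WBIR, with 1 of 7 and 2.58% at an unadjusted p under 0.05. In RCI+MSC-EVs against RCI it called 0 of 7 and 0.0% of all, with 0 of 7 and 3.29% unadjusted. Averaged over both injuries it called 0 of 7 and 0.0%, with 1 of 7 and 3.29% unadjusted. With DESeq2 or limma the number was 0 of 7 here as well. Log2FC ranged from -0.11 to 0.64 in WBIR and from -0.63 to 0.41 in RCI, beside medians of all genes of 0.11 and 0.12.

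*Il7r* had the largest positive estimate in both injuries. In WBIR+MSC-EVs replicates 1 and 3 were above all WBIR samples and replicate 2 was among them, a log2FC of 0.64 ± 0.29 (edgeR p 0.0411, adjusted p 0.997). In RCI+MSC-EVs all 3 samples were above all RCI samples, a log2FC of 0.41 ± 0.28 (edgeR p 0.174, adjusted p 0.989). The average was 0.53 ± 0.20 (edgeR p 0.0207, adjusted p 0.802), and 0.40 with TMM scaling. With same-numbered samples of each injury paired, it was 0.49 ± 0.14 (edgeR p 0.0105, adjusted p 0.365), and 0 of the 7 genes were called. With treatment *Il7r* was still 14.6-fold below Sham in WBIR+MSC-EVs and 11.7-fold below in RCI+MSC-EVs. *Cd3e* moved with it in RCI, where its log2FC on treatment was 0.56 ± 0.23 (edgeR adjusted p 0.989), and the mean log2 ratio of *Il7r* to *Cd3e* was -0.36 in RCI and -0.54 in RCI+MSC-EVs. In WBIR that ratio was -0.72 without and -0.29 with MSC-EVs, with overlap between the groups. The MSC-EV effect was also compared between the injuries: the difference ranged from -1.13 in *Il7* to 0.26 in *Il15*, and edgeR called 0 of 7 and 0.0% of all genes, with 0 of 7 and 2.58% unadjusted.

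To ask what the burn added, RCI was compared with WBIR. edgeR called 0 of the 7 genes and 0.704% of all genes between the untreated groups, with 1 of 7 and 16.7% at an unadjusted p under 0.05. Between both RCI groups and both WBIR groups it called 0 of 7 and 3.05% of all, with 3 of 7 and 25.8% unadjusted. *Il2rg*, where the 6 RCI and 6 WBIR samples did not overlap, had a log2FC of 0.71 ± 0.19 between them (edgeR p 0.00205, adjusted p 0.0542) and of 0.70 ± 0.27 between the untreated groups (edgeR p 0.0204, adjusted p 0.212). It was called with DESeq2 (adjusted p 0.0101) and when Sham replicate 2 or 3 was left out (lowest adjusted p 0.0164), and it was 0.55 with TMM scaling (adjusted p 0.0755). *Il21r* was higher by 0.62 ± 0.23 and *Il7r* by 0.44 ± 0.20 on the log2 scale in the RCI groups, neither passing adjustment (edgeR p 0.0185 and 0.0481, adjusted p 0.109 and 0.188). *Il15* had 0.66 ± 0.33 (edgeR adjusted p 0.213), and 0.89 without RCI replicate 3, when it was called (edgeR adjusted p 0.0245). *Il2rb* differed by -0.16 ± 0.24 and *Il4ra* by 0.10 ± 0.21 (edgeR adjusted p 0.703 and 0.795). The median of all genes was 0.23 in this comparison with scaling to reference genes and 0.04 with TMM.

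**Figure D4:**
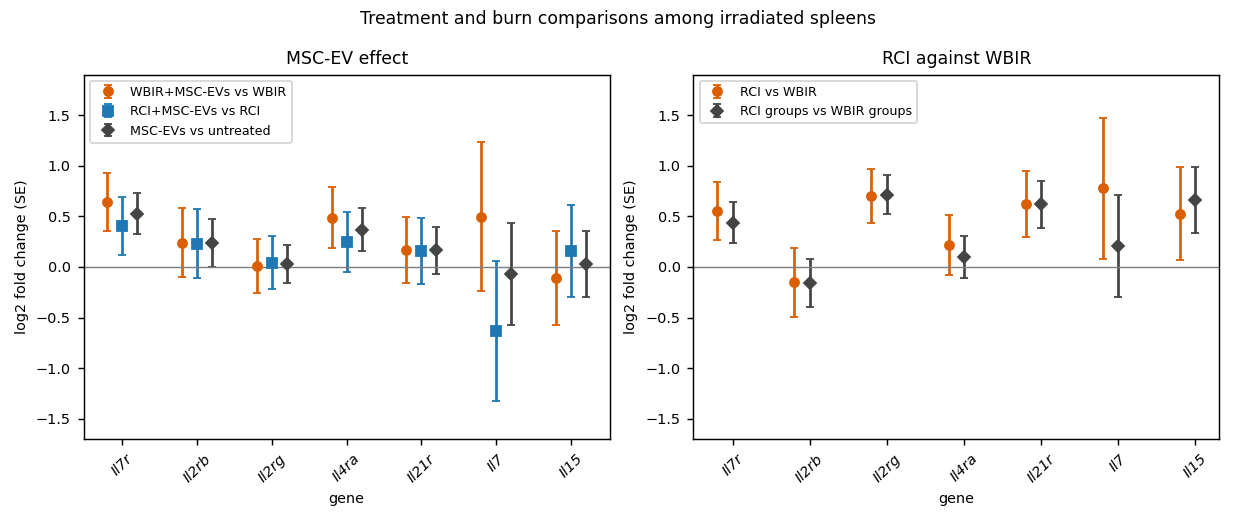
Log2 fold changes with SE bars (vertical) of the 7 genes (horizontal) for MSC-EV treatment in each injury and averaged (left) and for RCI against WBIR, untreated and with both groups of each injury (right). No adjusted p is under 0.05; *Il7r* lies at 0.64, 0.41 and 0.53 for treatment, and *Il2rg* at 0.70 and 0.71 for RCI against WBIR.

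The rest of the pathway was followed through a list of 23 genes, of which 20 were on the panel and 14 passed the filter. Against Sham 7, 6, 6 and 7 of the 14 were called lower and 0, 0, 1 and 2 higher, shares that for the falls lie near those of all tested genes given above (46.9%, 45.1%, 43.0% and 41.3%). The ligands *Il2*, *Il4*, *Il9*, *Il13*, *Il21* and *Tslp* had means of 7.60 to 13.3 raw counts and were not tested. Among receptor chains, *Il2ra* and *Il15ra*, the high-affinity chains for interleukin-2 and interleukin-15, were not called, with log2FC of -0.35 and 0.21 in WBIR and of 0.32 and 0.30 in RCI. With TMM scaling *Il15ra* was called higher in WBIR (0.85, adjusted p 0.0405) and *Il2ra* in RCI (0.80, adjusted p 0.0434). *Il13ra1*, which pairs with *Il4ra*, rose in RCI+MSC-EVs by 1.30 on the log2 scale (edgeR adjusted p 0.0217). Its log2FC of 0.59 in WBIR, 0.93 in WBIR+MSC-EVs and 0.97 in RCI were not called. With TMM scaling it was called higher in all 4 injured groups, by 1.30 to 1.68. *Crlf2*, which pairs with *Il7r* in the receptor for *Tslp*, was not called.

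Downstream, *Jak1*, *Jak3*, *Stat5a*, *Stat5b* and *Stat6* were lower in all 4 injured groups. *Jak1*, the kinase bound by the partner chains, fell by 1.38 on the log2 scale in WBIR and by 1.77 in RCI (edgeR adjusted p 0.000147 and 1.83e-05). *Jak3*, the kinase bound by the shared chain, fell by 1.30 in WBIR and 1.54 in RCI (edgeR adjusted p 0.0109 and 0.0039). In WBIR+MSC-EVs it fell by 1.04 (edgeR adjusted p 0.0344). With TMM scaling it was not called in WBIR (-0.50, adjusted p 0.182) or WBIR+MSC-EVs (-0.35, adjusted p 0.357). *Jak3* had 459.7, 1338 and 291.0 scaled counts in Sham, so replicate 2 stood far above the others. Sham replicate 3 lay below WBIR replicate 1 (323.0) and all WBIR+MSC-EVs samples (301.3 to 367.9). *Stat5a* fell by 1.75 in WBIR and 1.83 in RCI and *Stat5b* by 1.44 and 1.22, each called with TMM scaling too (-1.03, -1.27, -0.78 and -0.76). *Stat6*, the factor of interleukin-4 signalling, fell by 0.59 and 0.80 but was called in 0 of the 4 comparisons with TMM (0.04, -0.03, -0.32 and -0.31), where its sign in WBIR turned. *Bcl2*, a survival gene maintained by interleukin-7, fell by 2.22 in WBIR and 1.62 in RCI (edgeR adjusted p 0.000435 and 0.00344), and by 1.43 and 0.99 with TMM. Its Sham samples had 953.4, 3261 and 1067 scaled counts, replicate 2 again the highest, and the irradiated samples lay below them at 299.8 to 909.2. *Socs1*, a feedback inhibitor of these kinases, rose in RCI by 0.64 (edgeR adjusted p 0.0154) and in RCI+MSC-EVs by 1.13 (edgeR adjusted p 0.000416). With TMM scaling *Socs1* was called higher in all 4 injured groups (0.52, 0.93, 1.16 and 1.48, adjusted p 0.0300, 0.000807, 0.000121 and 1.72e-05). Scaled to reference genes, its log2FC was -0.14 in WBIR, of the opposite sign, and 0.38 in WBIR+MSC-EVs, neither called. Between the RCI groups and the WBIR groups *Socs1* was higher by 0.77 ± 0.15 (edgeR adjusted p 0.0185). Scaled to the least variable reference genes, *Socs1* was not called in RCI (adjusted p 0.128) or between the injuries (adjusted p 0.102). *Socs3* fell in WBIR and RCI+MSC-EVs, by 1.19 and 1.30 (edgeR adjusted p 0.0440 and 0.0309), and was called in neither with TMM (-0.44 and -0.87). It had 133.4, 345.4 and 127.5 scaled counts in Sham, where replicate 2 also stood apart. *Stat3* and *Cish*, another feedback inhibitor, were not called against Sham. With TMM scaling *Stat3* was called higher in RCI (0.53, adjusted p 0.00991) and RCI+MSC-EVs (0.50, adjusted p 0.0167), and *Cish* in WBIR+MSC-EVs (1.23, adjusted p 0.000568), RCI (0.67, adjusted p 0.0247) and RCI+MSC-EVs (1.05, adjusted p 0.00180).

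Genes with the most similar pattern were found by the root mean square difference of log2 scaled counts over the 15 samples, each gene centred on its own mean, among the 426 tested genes. The samples share the large gap between Sham and irradiated mice, which weighs on this measure. *Il7r* was nearest to *Dpp4* (0.355), *Cxcr4* (0.361) and *Icosl* (0.367), and its distance to the other receptor chains was 1.15 to 1.31. *Il2rb* was nearest to *Nfatc2* (0.234), *Smad3* (0.274) and *Ikzf1* (0.280), and *Il2rg* to *Traf2* (0.254), *Rae1* (0.260) and *Ikzf1* (0.284). *Il4ra* was nearest to *Tgfbr2* (0.262), *Stat5b* (0.272) and *Ptpn2* (0.272), and *Il21r* to *Il6ra* (0.304), *Cd97* (0.327) and *Tmem173* (0.363). *Il4ra* and *Il21r*, the neighbours on chromosome 7, were at a distance of 0.433 from each other, and *Il2rb* and *Il4ra* at 0.440. *Il15* was nearest to *Irf7* (0.322), *Tyrobp* (0.368) and *Tlr4* (0.381), the first an interferon-induced factor and the others myeloid adaptor and receptor genes. *Il7*, whose counts were low, was nearest to *Il33* (0.624), *Ltb4r1* (0.633) and *Tirap* (0.649).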

How the data were processed

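Barcode counts from the nCounter Mouse Immunology Panel were analysed in 15 spleen samples, grouped by their labels. The authors hybridised RNA, counted barcodes and normalised them in nSolver; the deposited values are raw counts, before that step. Counts were scaled to the geometric mean of the 14 reference genes. Of the endogenous genes, 426 averaged 20 counts or more, and these entered the quasi-likelihood test of edgeR 4.0.16 in R 4.3.3 (robust, all groups in the fit, 10 residual degrees of freedom, common dispersion 0.110), two-sided, with Benjamini-Hochberg adjustment over all tested genes of a comparison and a threshold of 0.05. SE is the absolute log2FC over the square root of F. The script was tested on simulated data. Replicates differed by more than counting error (smallest chi-square per degree of freedom 7.93), so each counted as 1 sample. Control probes, cartridge and run date did not enter, and no background was subtracted.

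Named genes are the 7 genes, their 3 nearest genes by pattern, a fixed pathway list and the ratio partners. Of the 14 ratios, 2 are not reported here. The members and lists were chosen with earlier results of these data known. Alternatives were TMM, median-of-ratios and scaling to the 7 least variable reference genes, no filter or a mean of 50 counts, DESeq2 1.42.0, limma 3.58.1 on log2(scaled count + 10), a replicate block and leaving out each sample. Pairing by replicate number is not stated in the labels. Deviations of same-numbered samples from their group means correlated above 0.1 for all 3 numbers in 2 of 10 group pairs, WBIR with WBIR+MSC-EVs (0.67, 0.37 and 0.22) and RCI with RCI+MSC-EVs (0.26, 0.32 and 0.51), and from -0.49 to 0.67 over all pairs. A fit with these pairs as a block in the 12 irradiated samples was added after seeing the data.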

Additional observations from a re-analysis of the deposited data

How the results depend on the processing

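The calls against Sham depended on the scaling. With TMM and with median-of-ratios scaling alike, 3 of the 7 genes were called in each WBIR group and 2 in each RCI group, where scaling to the least variable reference genes gave 6 and 4, and 6 and 5 (untreated, then treated). Shares of all tested genes in the alternative settings are not given, so these counts describe the 7 genes alone. DESeq2 called 1 gene, *Il2rg*, between the RCI and the WBIR groups, and leaving out samples in turn gave 0 to 1. The direction of *Il7* was not settled in 3 of the 4 comparisons with Sham: in WBIR its log2FC was 0.49 with TMM and with median-of-ratios scaling, in RCI+MSC-EVs 0.34 and 0.32, and with samples left out in turn it lay between -1.07 and 0.47 in WBIR, -0.36 and 0.95 in WBIR+MSC-EVs, and -0.54 and 0.62 in RCI+MSC-EVs. In RCI it was positive in each setting in which it was tested, without passing, at 0.10 to 1.26 with samples left out in turn. Without RCI replicate 3, its highest sample, *Il7* fell below the filter and was not tested. The other RCI samples, at 21.52 and 19.18 scaled counts, lay within the Sham range (6.627 to 39.2), so the direction in RCI without that sample is not known. With the replicate number as a block, 6 and 5 genes were called against Sham in the WBIR groups, 5 in each RCI group, and 0 in the other comparisons; *Il2rb* was not called in WBIR+MSC-EVs (adjusted p 0.0748) and *Il4ra* was called in both treated groups. *Il2rb* in WBIR+MSC-EVs was called in 7 of 23 alternatives. The log2 ratio ran, with samples left out in turn, from 0.76 to 1.22 for *Il2rb* to *Cd3e*, from 0.45 to 0.76 for *Il2rg* to *Cd3e*, from -0.35 to 0.051 (without Sham replicate 1) for *Il2rg* to *Ptprc* and from -0.18 to 0.25 for *Il4ra* to *Il21r*; with 2 Sham samples fewer assignments exist, so that p cannot go as low. Apart from the scaling, the causes of these changes were not tested. Low counts limit *Il7* and *Il15*, and the 3 samples per group limit the other genes.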
